A study of Mus musculus with 6 samples.

Results

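Metallothioneins are small cysteine-rich proteins that bind zinc and copper, and Mt1 encodes the form that metals, glucocorticoids and inflammatory cytokines induce in many tissues. The transcription factor MTF-1, encoded by Mtf1, senses free zinc and binds metal response elements in front of the metallothionein genes and of Slc30a1, the zinc exporter ZnT1 of the plasma membrane. Transporters of the Slc30a family (ZnT) move zinc out of the cytosol, those of the Slc39a family (ZIP) move it in, and a cell loaded with zinc raises metallothionein and ZnT1 together. The genes described here are Mt1, Mtf1, Slc30a1 and the importers Slc39a1 (ZIP1), Slc39a10 (ZIP10) and Slc39a14 (ZIP14). They were chosen because Mt1 was higher in dendritic cells lacking Map3k7, and the question was whether Mt2, Mtf1 and the zinc transporters followed. Their differences between the groups are therefore given as a description, without a test. All probe sets whose platform annotation names 1 of these genes and no other were taken, which gave 12 probe sets of 6 genes, out of 17097 genes named on the array. Of the 7 genes listed for the question, Mt2 had no probe set under its own symbol and was not analysed here, so the question could not be answered for it. Slc39a1 had 1 probe set, Slc39a14 had 3 and each of the other 4 genes had 2. A further 2 probe sets carry a second gene symbol beside Mt1 or Mtf1 and were left out.

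RNA came from splenic CD11c+ dendritic cells, which present antigen to T cells, taken from C57Bl/6 mice by flow cytometry. The wild-type group (WT, 3 arrays) and the knockout group (Map3k7CreER, 3 arrays) were both given tamoxifen for 3 days, which activates the inducible Cre and so removes Map3k7, the gene of the kinase TAK1. The labels do not name the promoter of the CreER transgene, and effects of Cre itself, or of deletion in other cells of the mouse, cannot be told apart from those of deletion in dendritic cells. The labels do not tie the replicates to different animals; the p-values therefore reflect the spread among these arrays, which may be technical, and 3 arrays a group limit the precision.

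Map3k7 itself read 6.68, 6.69 and 6.57 on a log2 scale in wild-type cells and 4.04, 4.46 and 3.64 in knockout cells on its brightest probe set and fell by 2.60 (SE 0.19, limma, Benjamini-Hochberg adjusted p = 0.00128). The array medians lay between 3.77 and 3.81, and a level close to these is that of a probe set in the middle of the array, which may not be expressed. Over all genes 1.08% were called higher and 0.591% lower (limma, adjusted p under 0.05). Of all 45037 probe sets 5537 had an unadjusted p under 0.05. Of 9 dendritic cell markers measured, 0 passed the threshold in either direction (limma), with 4 at an unadjusted p under 0.05. With so few genes called, a count of 0 among 9 says little. The markers include Itgax (the gene of CD11c), Flt3, H2-Ab1 and Cd74. Itgax read 11.16 ± 0.16 (SD, n = 3) in wild-type and 10.93 ± 0.10 (SD, n = 3) in knockout cells. The smallest p among them belonged to Zbtb46, a transcription factor of conventional dendritic cells, at -0.75 (SE 0.15, limma adjusted p = 0.0621), which passed as lower without knockout replicate 1 (-0.90, limma adjusted p = 0.0184). Of its 4 probe sets 2 dimmer ones passed as lower with all arrays, at -0.93 (limma adjusted p = 0.0287) and -0.84 (limma adjusted p = 0.048). Of the 9 markers 8 had a negative difference, with a list median of -0.21, and Xcr1, the chemokine receptor of the CD8a-positive subset, stood at -0.81 (SE 0.21, limma adjusted p = 0.14).

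The promoters of Mt1 and Slc30a1 are shown because these are the textbook targets of MTF-1 and are the 2 genes here with a probe set past the threshold of the fit. The RefSeq promoter table (build GRCm38.p6) gives 250 bases before and 50 after each start, and holds windows for 5 of the 6 genes, with 2 starts for Slc39a10; Slc39a14 was not matched. The core of the metal response element was searched as TGCACNC and TGCGCNC and, on the other strand, as GNGTGCA and GNGCGCA, counting overlapping matches each. Matches are in capitals in the 250 bases before the start, written 5′ to 3′ on the gene's strand.
Mt1, chr8:94178839-94179088, plus strand: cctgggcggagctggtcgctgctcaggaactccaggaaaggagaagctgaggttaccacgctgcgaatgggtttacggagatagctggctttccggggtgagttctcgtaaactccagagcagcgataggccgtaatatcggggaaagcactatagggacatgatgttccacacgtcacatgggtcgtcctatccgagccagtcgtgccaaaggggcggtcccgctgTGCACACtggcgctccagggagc
Slc30a1, chr1:191906531-191906780, plus strand: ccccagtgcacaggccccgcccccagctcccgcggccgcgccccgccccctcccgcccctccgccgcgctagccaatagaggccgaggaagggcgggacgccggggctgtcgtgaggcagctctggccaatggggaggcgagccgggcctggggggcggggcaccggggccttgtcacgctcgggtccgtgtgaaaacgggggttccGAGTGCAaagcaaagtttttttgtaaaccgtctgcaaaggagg

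The Mt1 window held 3 matches, TGCACAC from -23 to -17 relative to the start, TGCACTC from 3 to 9 and TGCGCTC from 21 to 27, all on the gene's strand. Of the 32851 promoter windows in the table, 1.97% held at least 3 matches. The Slc30a1 window held 2, both on the other strand, read on the gene's strand as GAGTGCA from -43 to -37 and GAGCGCA from 31 to 37, and 7.11% of all windows held at least 2. The windows of Mtf1 and Slc39a1 and both windows of Slc39a10 held 0 matches, while 25.7% of all windows held at least 1. A match is a run of letters and not a measured binding site, and the absence of one says only that these letters are not in these 300 bases. The positions hold for the starts of the RefSeq table, which were not checked against other start sites. Elements outside these windows were not counted.

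Mt1 was the one gene of the 6 whose signal was several times higher in knockout cells. Its bright probe set read 9.58, 9.32 and 9.58 in the 3 wild-type arrays and 11.42, 12.32 and 12.60 in the 3 knockout arrays. All knockout arrays lay above all wild-type arrays, and the knockout arrays were more spread (SD 0.62) than the wild-type arrays (SD 0.15), with knockout replicate 1 the lowest of its group. The difference was 2.62 on the log2 scale (SE 0.28), a 6.14-fold higher signal, and ranked 27 among the differences of 45037 probe sets. This probe set has an ID of the _s_at kind, whose probes can match transcripts of more than 1 gene, so its signal cannot be assigned to Mt1 alone.

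The second Mt1 probe set, which is not of that kind, was much dimmer. It read 4.46, 4.67 and 4.28 in wild-type cells and 5.24, 4.98 and 5.52 in knockout cells. Here too the groups did not overlap, but the difference was 0.77 (SE 0.16), or 1.71-fold, and the lowest knockout array was replicate 2 and not replicate 1. Both Mt1 probe sets therefore read higher in all knockout arrays, and they disagreed on the size.

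Mtf1, the metal sensor, differed little between the groups. Its brighter probe set read 6.50, 6.63 and 6.47 in wild-type cells and 6.63, 6.76 and 6.99 in knockout cells, a difference of 0.26 (SE 0.12), or 1.20-fold. The groups only just failed to overlap, with the highest wild-type array and the lowest knockout array both at 6.63. The second Mtf1 probe set, at 4.89, 4.69 and 5.20 against 4.86, 4.99 and 5.06, had overlapping groups and a difference of 0.04 (SE 0.14).

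Slc30a1, the exporter that MTF-1 induces together with metallothionein, was higher in knockout cells on both of its probe sets, by less than Mt1. The brighter probe set read 6.22, 6.35 and 6.50 in wild-type and 6.94, 6.67 and 6.94 in knockout cells, a difference of 0.49 (SE 0.12), or 1.41-fold. The second read 5.26, 5.12 and 5.32 against 5.75, 5.90 and 5.90, a difference of 0.61 (SE 0.10), or 1.53-fold. On each of them all knockout arrays were above all wild-type arrays, and the knockout arrays were tightly grouped on the second (SD 0.09). The 3 knockout arrays stood 0.51, 0.66 and 0.66 above the wild-type mean on that probe set, while on the bright Mt1 probe set they stood 1.92, 2.82 and 3.11 above it.

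The 3 importers did not move as a group. Slc39a1, the plasma membrane importer ZIP1, read 8.39, 8.26 and 8.20 in wild-type cells and 8.61, 8.97 and 8.67 in knockout cells. The groups did not overlap and the difference was 0.47 (SE 0.12), or 1.38-fold. Slc39a10, the importer ZIP10 that MTF-1 is known to repress when zinc is high, read 8.03, 7.63 and 7.89 against 7.90, 7.79 and 7.78 on its brighter probe set. The groups overlapped, with a difference of -0.03 (SE 0.12). Its dimmer probe set read 4.78, 3.81 and 4.85 against 4.32, 4.71 and 4.70 and also overlapped, with a difference of 0.10 (SE 0.27). Wild-type replicate 2 was the lowest of its group on both Slc39a10 probe sets.

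Slc39a14, the importer ZIP14 that is known in liver as a carrier of zinc and iron induced by inflammation, was at the level of the array median in both groups. Its 3 probe sets had wild-type means of 3.89, 3.77 and 3.56 and knockout means of 3.76, 3.81 and 3.95. The first of them read 4.11, 3.80 and 3.75 in wild-type cells and 3.69, 3.85 and 3.75 in knockout cells, a difference of -0.12 (SE 0.12). The third had the largest difference, 0.39 (SE 0.20), with knockout replicate 3 at 4.39 and the other knockout arrays at 3.73 and 3.74. The groups overlapped on all 3 probe sets, and the transcript may not have been expressed in these cells.

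**Figure D1:**
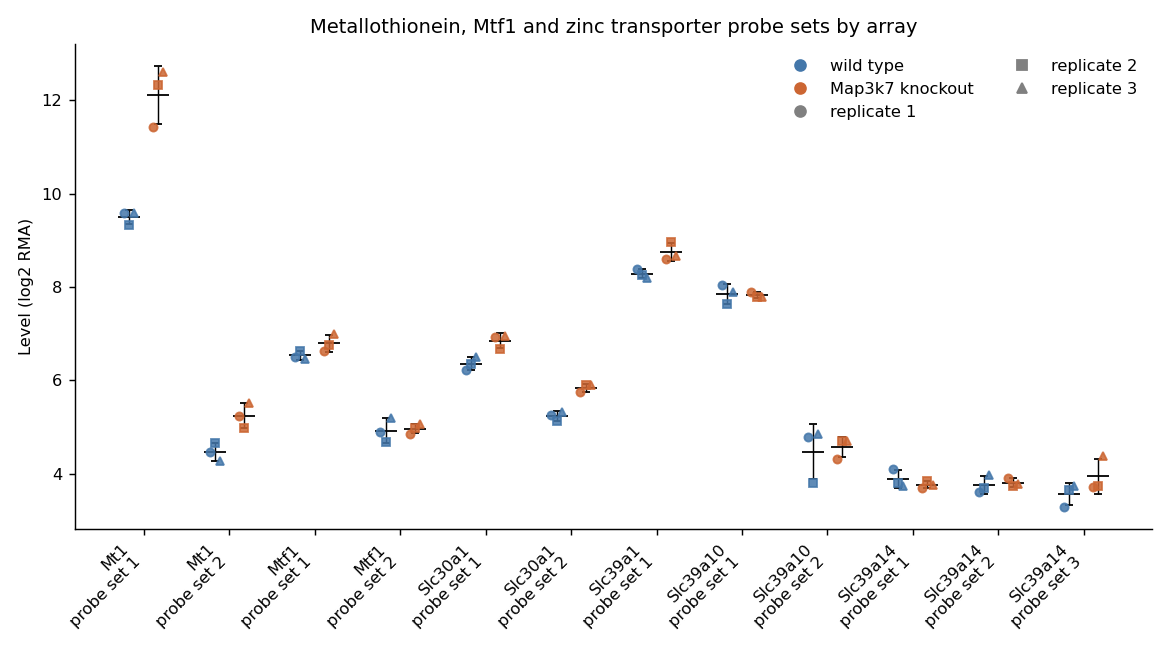
Level (log2 RMA) of the 12 probe sets on the 6 arrays, with symbols for replicates, bars for the group mean and whiskers for the SD (n = 3); probe sets of a gene are numbered from the brightest. The bright Mt1 probe set goes from 9.49 to 12.11, the Slc30a1 and Slc39a1 probe sets separate by 0.47 to 0.61, and the groups overlap on the Slc39a10 and Slc39a14 probe sets.

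Counted over the 12 probe sets, 6 had all knockout arrays above all wild-type arrays, 0 had all below and 6 overlapped. Over all 45037 probe sets 8.64% lay wholly above and 8.83% wholly below. These shares take in dim probe sets and those without a gene symbol. They were not computed over the brightest probe sets of genes alone. The fit across all probe sets (limma, Benjamini-Hochberg, threshold 0.05) placed 2 of the 12 past the threshold as higher, the bright one of Mt1 and the second of Slc30a1, and 0 as lower. In that fit 0.804% of all probe sets were called higher and 0.391% lower. Because the genes were chosen on this contrast, these counts support nothing further. The median difference of the 6 genes on their brightest probe sets was 0.36, against -0.02 over all 17097 genes. Without knockout replicate 2 neither probe set passed, the Mt1 difference being 2.52, and the second Slc30a1 probe set passed in 1 of the 6 fits that leave out 1 array.

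To see whether other genes of the same families differed, all other metallothionein, ZnT and ZIP genes were taken by symbol. None of the 22 passed the threshold in either direction (0 higher and 0 lower by limma), beside 1.08% of all genes called higher and 0.591% lower. At an unadjusted p under 0.05 (limma) there were 6, beside 5537 of all 45037 probe sets. Of the 22 genes 12 had a positive and 10 a negative difference, with a median of 0.08. The 2 other metallothioneins, Mt3 and Mt4, which are known from brain and stratified epithelia, were dim in both groups. Mt3 read 4.18 ± 0.10 (SD, n = 3) in wild-type and 4.15 ± 0.05 (SD, n = 3) in knockout cells, a difference of -0.03 (SE 0.09, limma adjusted p = 0.946). Mt4 had a difference of -0.12 (SE 0.13, limma adjusted p = 0.822), the smaller p of the pair.

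Among the 9 other exporters the differences ran from -0.09 to 0.66 with a median of 0.15, and 3 had all knockout arrays above all wild-type arrays, beside 8.64% of all probe sets. The smallest p belonged to Slc30a7, ZnT7, which loads zinc into the Golgi. It went from 7.84 ± 0.19 (SD, n = 3) to 8.50 ± 0.16 (SD, n = 3), a difference of 0.66 (SE 0.13, limma adjusted p = 0.0659). Without knockout replicate 1 another exporter, Slc30a4 (ZnT4, of endosomes and lysosomes), passed with a difference of 0.79 (SE 0.14, limma adjusted p = 0.0414); with all arrays it stood at 0.66 (SE 0.15, limma adjusted p = 0.0989). Both stood about as far above wild type as Slc30a1 did on its second probe set.

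Among the 11 other importers the differences ran from -0.28 to 0.40 with a median of 0.07. The smallest p belonged to Slc39a7, ZIP7, which releases zinc from the endoplasmic reticulum and Golgi. It went from 7.95 ± 0.04 (SD, n = 3) to 8.32 ± 0.13 (SD, n = 3), a difference of 0.38 (SE 0.10, limma adjusted p = 0.15). Slc39a1 was thus not the only importer with non-overlapping groups and a higher knockout mean. Of these 11 genes, 5 had a mean level under 4.5. Their levels ran from 3.25, below the array medians, to 3.93, beside 3.82 for the brightest Slc39a14 probe set.

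**Figure D2:**
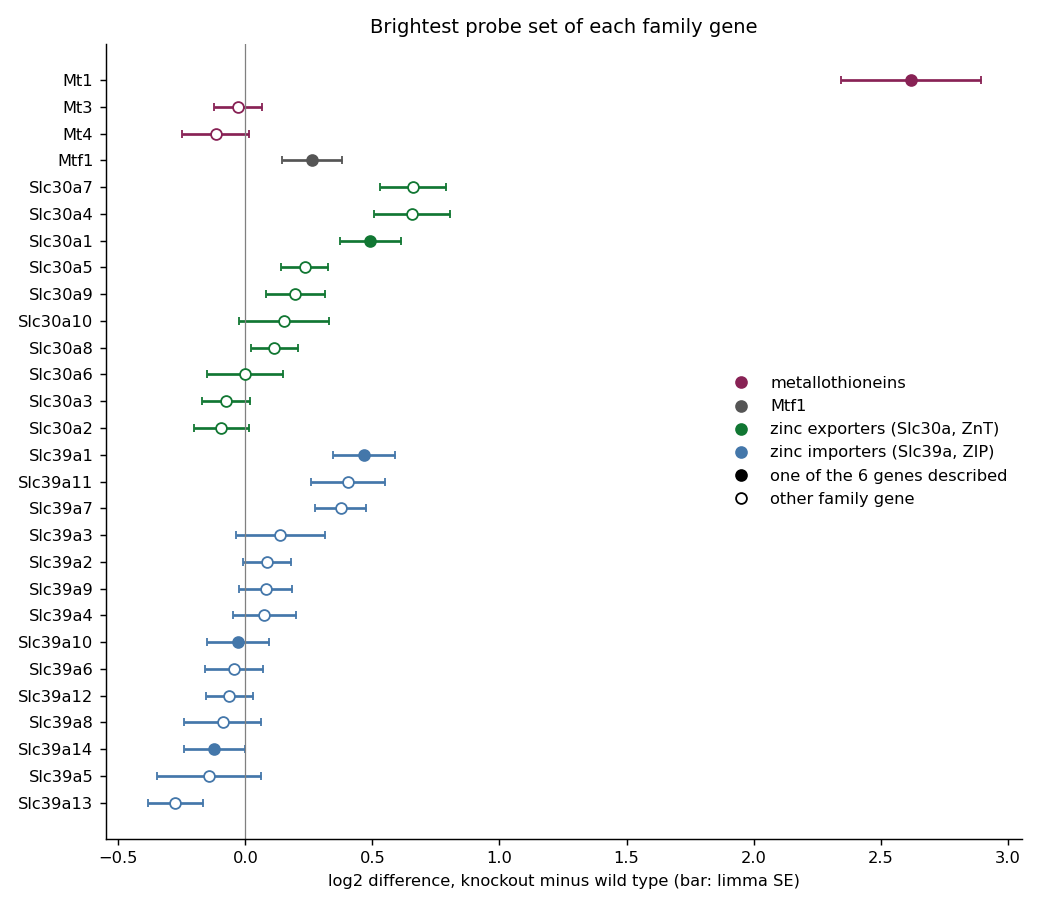
log2 difference, knockout minus wild type, of the brightest probe set of each metallothionein, Mtf1, Slc30a (ZnT) and Slc39a (ZIP) gene, with the limma standard error as a bar; filled points are the 6 genes described and open points the 22 other family genes. Mt1 stands at 2.62 on its _s_at probe set, whose signal cannot be assigned to Mt1 alone, and every other gene lies between -0.28 and 0.66. The second Mt1 probe set, at 0.77, is not drawn.

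Genes known to respond to the same inducers as metallothioneins were listed with earlier results of these data known, so their direction is not independent evidence. Of 6 other genes described as MTF-1 targets, 2 fell, 0 rose and 4 did not pass, beside 0.591% of all genes called lower and 1.08% higher. Those that fell were Gclc, the catalytic subunit of glutathione synthesis, by 1.09 (SE 0.14, limma adjusted p = 0.0159), and Csrp1, an actin-associated LIM protein, by 1.20 (SE 0.18, limma adjusted p = 0.0276). Gclc kept its call in 3 of the 6 fits that omit an array and Csrp1 in 1, and neither passed without wild-type replicate 1, wild-type replicate 2 or knockout replicate 2; as the mean of its 2 probe sets Csrp1 stood at -1.14 (limma adjusted p = 0.0622). The list median was 0.06.

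Of 7 heavy metal and oxidative stress genes, 1 fell, 0 rose and 6 did not pass, beside 0.591% of all genes called lower and 1.08% higher. The list median was 0.10. The one that fell was Hspa1b, an inducible heat shock chaperone, by 2.03 (SE 0.23, limma adjusted p = 0.00943), a call lost without wild-type replicate 2. Of 8 copper-handling genes 4 had an unadjusted p under 0.05 (limma), beside 5537 of all 45037 probe sets. Of these 8 genes 0 passed the threshold in either direction, with a median of -0.08. The copper exporter Atp7a had the smallest p among them, with a difference of 0.60 (SE 0.17, limma adjusted p = 0.178). Of 2 other divalent metal carriers 0 passed (limma, 1 at an unadjusted p under 0.05). The smaller p belonged to Slc11a1, the phagosomal metal carrier, at 0.42 (SE 0.11, limma adjusted p = 0.155).

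Of 8 glucocorticoid-induced genes, 4 rose, 0 fell and 4 did not pass, beside 1.08% of all genes called higher, with a list median of 1.39 against -0.02 over all genes. Tsc22d3, a glucocorticoid-induced leucine zipper protein counted among those that did not pass, had 1 of its 3 probe sets past the threshold as higher (0.93, limma adjusted p = 0.0112). Those that rose were Fkbp5, which lowers the hormone affinity of the glucocorticoid receptor, by 3.21 (SE 0.22), Ddit4, an inhibitor of mTORC1, by 2.86 (SE 0.16), Klf9, a zinc finger repressor, by 1.89 (SE 0.21) and Zbtb16, a BTB zinc finger factor, by 1.88 (SE 0.26). Their limma adjusted p-values lay between 0.000425 and 0.0173. Omitting each array in turn, Fkbp5 and Ddit4 passed every time (6 of 6), Klf9 in 4 and Zbtb16 in 3. The means of all probe sets were 0.94 for Klf9 and 1.16 for Zbtb16, the latter no longer past the threshold (limma adjusted p = 0.0622), and 2.26 for Fkbp5. All 8 genes had all knockout arrays above all wild-type arrays on the brightest probe set, a pattern that 8.64% of all probe sets show.

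Of 6 STAT3-induced genes, 2 rose, 0 fell and 4 did not pass, beside 1.08% of all genes called higher and 0.591% lower. The list median was 0.37. Those that rose were Socs3, the feedback inhibitor of JAK and STAT signalling, by 2.34 (SE 0.30, limma adjusted p = 0.0133), and the transcription factor Cebpd by 0.91 (SE 0.11, limma adjusted p = 0.0112). Neither passed without wild-type replicate 1, wild-type replicate 2 or knockout replicate 2, and 3 genes of the list passed without knockout replicate 1, Il4ra being the third (0.87, limma adjusted p = 0.029). The mean level of the 6 genes was 7.58, 7.51 and 7.88 in the wild-type arrays and 7.99, 8.42 and 8.58 in the knockout arrays. Knockout replicate 1 was the lowest knockout array in this mean, in the glucocorticoid list (9.98, against 10.01 and 10.31) and on the bright Mt1 probe set. A lowest replicate 1 was not particular to these lists. It was also lowest in the heavy metal and oxidative stress list (6.32, against 6.56 and 6.46) and in the other exporters (6.13, against 6.22 and 6.20). In both of these replicate 2 was the highest, whereas replicate 3 was the highest for Mt1 and the glucocorticoid and STAT3 lists. Copper handling was nearly level (8.626, against 8.628 and 8.642). Among the other MTF-1 targets replicate 1 was the highest (6.66, against 6.52 and 6.57). The part of these inducers in the Mt1 difference was not tested.

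**Figure D3:**
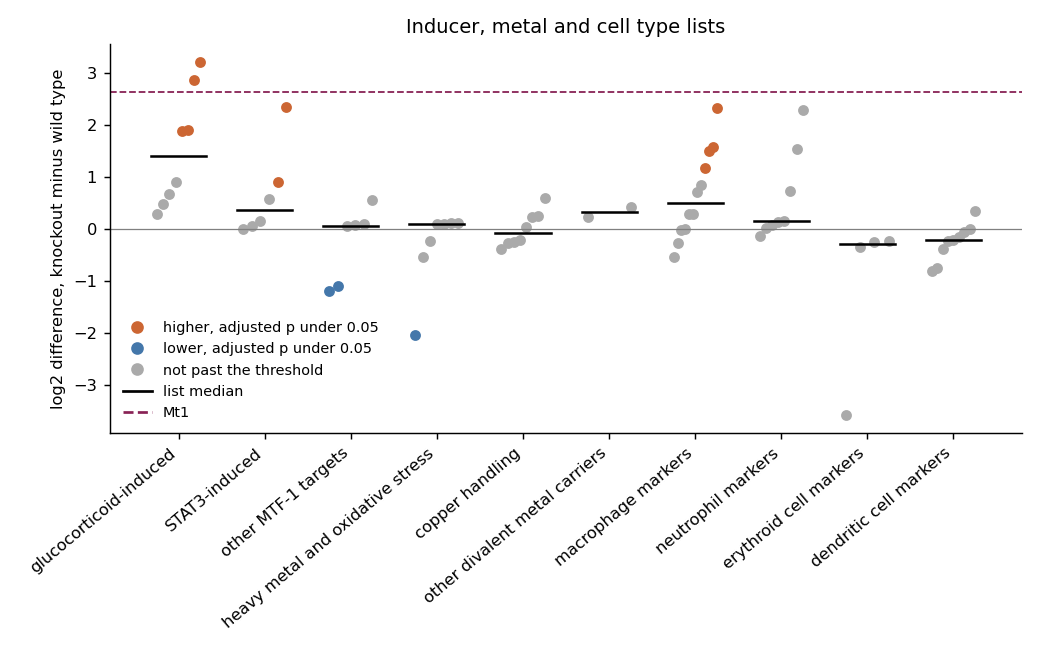
log2 difference, knockout minus wild type, of each gene of the inducer, metal and cell type lists (points, brightest probe set), coloured where the limma adjusted p was under 0.05, with the list median as a black bar and Mt1 as a dashed line at 2.62. Of the lists drawn, the glucocorticoid-induced genes have the highest median (1.39), and among the other MTF-1 targets the 2 genes past the threshold are lower.

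Markers of other cell types moved in the same comparison. Of 12 macrophage markers 4 rose, 0 fell and 8 did not pass, beside 1.08% of all genes called higher and 0.591% lower. The list median was 0.50. The scavenger receptor Cd163 rose by 1.58 (SE 0.18), the secreted scavenger protein Cd5l by 1.51 (SE 0.20), the apoptotic cell receptor Mertk by 1.16 (SE 0.14) and the mannose receptor Mrc1 by 2.31 (SE 0.24), with limma adjusted p-values between 0.00658 and 0.0166. Omitting each array in turn, Mrc1 passed every time (6 of 6), Cd163 in 5, Mertk in 3 and Cd5l in 2; the list had 1 gene past the threshold without knockout replicate 2, and 6 without knockout replicate 3, C1qa and C1qb of complement C1q being added. The mean level of the 12 markers lay between 6.19 and 6.41 in wild-type arrays and was 7.05, 7.10 and 6.73 in knockout replicates 1, 2 and 3. Of the 12 markers 9 had a positive difference, and 5 had all knockout arrays above all wild-type arrays, beside 8.64% of all probe sets. The differences of Hmox1 (-0.53), Adgre1 (-0.28) and Timd4 (-0.03) were negative, and Spic stood at 0.005. Hmox1 had all knockout arrays below all wild-type arrays, beside 8.83% of all probe sets. The list thus did not move as a whole. Mrc1, with the largest difference, read 8.32, 8.71 and 8.52 in knockout replicates 1, 2 and 3, and Cd163 read 5.59, 5.55 and 5.01.

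The counts of the remaining lists stand beside 1.08% of all genes called higher and 0.591% lower. At an unadjusted p under 0.05 they stand beside 5537 of all 45037 probe sets. Of 8 neutrophil markers 0 passed (limma, 3 at an unadjusted p under 0.05). Their list means were 4.18 to 4.41 in wild-type and 4.56 to 5.48 in knockout arrays. S100a8, a calcium-binding and zinc-binding protein of neutrophils and monocytes, had the smallest p at 2.28 (SE 0.60, limma adjusted p = 0.147). Of 4 monocyte markers 0 passed (limma, 3 at an unadjusted p under 0.05), with means of 6.53 to 6.82 and 6.61 to 7.10, and Cx3cr1 had the smallest p at -1.02 (SE 0.20, limma adjusted p = 0.0654). Without knockout replicate 1 Cx3cr1 passed as lower (-1.21), and without knockout replicate 3 Fcgr1 passed as higher (0.97). Of 4 erythroid markers 0 passed (limma, 2 at an unadjusted p under 0.05), with means of 4.78 to 5.61 and 3.83 to 4.38. Hba-a1, an alpha globin, had the smallest p there at -3.57 (SE 0.74, limma adjusted p = 0.0713), and passed without wild-type replicate 3 (-4.27). With all arrays 1 of its 3 probe sets, a dimmer one, passed as lower, at -4.00 (limma adjusted p = 0.0352). Of 3 B cell and 5 T and NK cell markers 0 passed (limma, 1 in each at an unadjusted p under 0.05), with means of 5.23 to 5.31 against 5.02 to 5.14 and of 4.73 to 5.0 against 4.39 to 4.60. The smallest p-values were those of Ms4a1 (-0.51, limma adjusted p = 0.275) and Cd4 (-0.97, limma adjusted p = 0.0535), and Cd4 passed without knockout replicate 1 (-1.14). The T cell markers Cd3e and Cd3g stood at -0.09 and -0.13, with overlapping groups. In bulk RNA a change in the number of cells of a type and a change of RNA per cell cannot be told apart, and the part of these cell types in the Mt1 difference was not tested.

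The genes most like Mt1 over the 6 arrays were sought among 294 genes, other than those described, with an absolute log2 difference of at least 1 and a level at or above the median probe set. The 5 with the highest Pearson correlation with the bright Mt1 probe set (n = 6 arrays in 2 groups, so that the group difference alone gives high values) were Spon1, Klf13, Gadd45a, Rcan1 and Fcgr4, with r between 0.997 and 0.999. Spon1, a matrix protein, read 5.22, 4.72 and 5.14 in wild-type and 8.96, 10.36 and 10.76 in knockout arrays. Klf13 is a zinc finger factor, Gadd45a a stress-induced growth regulator, Rcan1 an inhibitor of calcineurin and Fcgr4 an Fc receptor, and their differences ran from 1.21 to 2.08. In all 5 genes knockout replicate 1 was the lowest and replicate 3 the highest knockout array, as for Mt1. Because they were picked by their correlation with Mt1 on these arrays, that order was largely fixed by the choice. Of the zinc genes, the second Slc30a1 probe set had the highest correlation with the bright Mt1 probe set (r = 0.985), followed by Slc39a1 (0.90). The second probe set of Mt1 itself had 0.87, below both. The brighter Slc39a10 probe set had -0.13. The brighter Slc30a1 probe set had 0.84, as the brighter Mtf1 probe set did. On that Slc30a1 probe set knockout replicate 2 was the lowest knockout array (6.67, against 6.94 and 6.94), unlike on the bright Mt1 one. All of these values share the 6 arrays and their group difference and are given as a description.

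**Figure D4:**
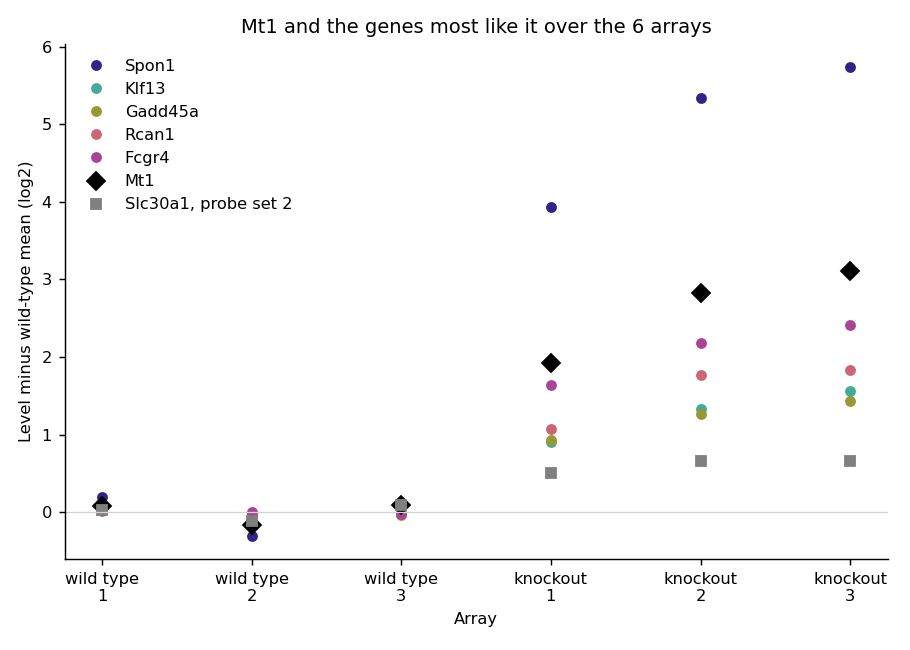
Level minus the gene's wild-type mean (log2) on each of the 6 arrays for Mt1 (diamonds), the 5 genes with the highest correlation with it (circles) and the second Slc30a1 probe set (squares). Mt1 stands 1.92, 2.82 and 3.11 above its wild-type mean in the knockout arrays and the second Slc30a1 probe set 0.51, 0.66 and 0.66. The brighter Slc30a1 probe set, at 0.58, 0.31 and 0.59, is not drawn.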

How the data were processed

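The authors deposited 1 value per probe set and array on a log2 scale, which per the submitters' processing notes came from RMA (background correction, quantile normalization and probe set summary) and Affymetrix Expression Console 1.1; the scale was read from the values, which run from 2.58 to 13.9. Each array took biotin-labelled cRNA from 100 ng of total RNA, per the labels' protocols. The genome build of the probe sets is not given in the sources used here. Of 45141 rows, 104 Affymetrix controls were left out. Gene symbols came from the platform annotation: 28898 probe sets had 1 symbol, 551 several and 15588 none. The brightest probe set (highest mean over the 6 arrays) stood for a gene. Knockout minus wild type was fitted with limma 3.58.1 (lmFit and eBayes without covariates, R 4.3.3) over 45037 probe sets, with Benjamini-Hochberg adjustment, and the script was tested on simulated data. The 6 arrays were checked for duplicates, with 0 identical pairs. The genes and lists were chosen with earlier results of these data known. The rule for named genes took Map3k7, the 6 genes, of each list the genes past the threshold or else the one with the smallest p, and the 5 genes most like Mt1. Outside this rule, and named after their values were seen, are Slc30a4, Mt3, Itgax, Flt3, H2-Ab1, Cd74, Xcr1, Tsc22d3, Il4ra, C1qa, C1qb and Fcgr1. The same holds for Hmox1, Adgre1, Timd4, Spic, Cd3e and Cd3g. Hmox1 stands in the macrophage and the stress list. Counts of a list cover its genes that were measured here, and some listed genes are not reported here. Figures were drawn with matplotlib 3.10.9.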

Additional observations from a re-analysis of the deposited data

How the results depend on the processing

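The bright Mt1 probe set is the only _s_at one among the 12, and without probe sets ending in _x_at or _s_at the Mt1 difference rested on the dimmer one and was 0.77; as the mean of both it was 1.70. As the mean of its 3 probe sets Slc39a14 stood at 0.11 in place of -0.12. The differences of the 6 genes otherwise moved by less than 1 SD pooled over the 2 groups under the alternatives run for them, though some moved by more than the SD of the tighter group. With 1 array left out they ran from 2.37 to 2.97 for Mt1, 0.16 to 0.34 for Mtf1, 0.42 to 0.58 for Slc30a1, 0.36 to 0.53 for Slc39a1, -0.14 to 0.06 for Slc39a10 and -0.19 to -0.01 for Slc39a14. Of the 12 probe sets, 1 was past the threshold as higher without _x_at and _s_at probe sets, 1 with a trended variance and 1 at an adjusted p under 0.01, and 0 to 2 with 1 array left out. Of the 22 other family genes, 2 were higher at an adjusted p under 0.1 and 0 to 1 with 1 array left out. Of the genes in the inducer, metal and marker lists, 10 were higher and 3 lower. At an adjusted p under 0.01 these were 5 and 1, and 7 were lower at an adjusted p under 0.1, 5 with a trended variance, 6 with array weights and 6 with the replicate block; with 1 array left out 4 to 13 were higher and 0 to 6 lower. Over all probe sets 362 were higher and 176 lower. These counts were 108 and 26 at an adjusted p under 0.01, 709 and 447 at 0.1, and 268 lower with array weights; with 1 array left out they ran from 100 to 498 and from 25 to 362. With the replicate number as a block, 567 were higher and 426 lower. The block added calls for Tsc22d3, Xcr1, Fcgr1, Cx3cr1 and Hba-a1 in the lists and ended none of the calls made there without it. Same-numbered arrays deviated from their group means with correlations of 0.05, 0.13 and 0.32, and differently numbered ones with -0.28 to 0.22. Wild-type replicates 1 and 2 correlated best with a knockout array of another number. Whether the numbers mark a pairing is thus not settled, and the main fit did not use them.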
